A study of Drosophila melanogaster with 3 samples.

Results

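The genes described here are the classical Polycomb and Trithorax group of Drosophila melanogaster, read as possible chromatin targets of chiffon (chif). The list holds 18 Polycomb genes and 15 Trithorax genes, 33 of the 13968 protein-coding genes on the main chromosome arms, and all 33 symbols were found in the annotation. A gene was called bound where the summit of a thresholded region lay within 500 bp of any annotated transcription start site (TSS) of that gene. The genes were chosen by their place in these groups while their summits in the same thresholded list were already known, so bound status, signal and rank are given as a description and were not tested.

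Chromatin came from whole embryos of mixed sex, aged 0 to 24 hours, of the strain chif-RB-GFP. This transgenic line stably expresses chif with GFP at its C-terminus, and anti-GFP immunoprecipitation recovered the tagged protein from chromatin sheared by sonication (size range 200 to 800 bp). There was 1 group, with 3 biological replicates labelled as separate biosamples of that strain, and the note on the fusion names chif-RB for replicate 1 and chif for replicates 2 and 3. The replicates differ in how many regions they share: replicate 2 lacked a summit in many of the weaker promoter regions that replicates 1 and 3 both held, as given below. The data are lists of regions with a signal, which is the authors' own score for each region and has meaning only within 1 list. They hold no read counts, so depth is unknown, and a library from untagged embryos was not used here.

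Polycomb and Trithorax proteins keep developmental genes, homeotic genes first among them, in a stable silent or active state through cell division. Polycomb repressive complexes methylate and ubiquitinate histones and compact chromatin, while Trithorax proteins methylate histones, remodel nucleosomes or assist transcription. Chiffon is the Dbf4-like activating subunit of the Cdc7 kinase, which fires replication origins, and is also a subunit of a Gcn5 histone acetyltransferase complex.

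Of the 18 Polycomb genes 9 were bound, or 50%, and of the 15 Trithorax genes 8 were bound, or 53.3%, against 20.6% of all protein-coding genes by the same rule. The 17 bound genes made up 51.5% of the 33, and the shares of the Polycomb and Trithorax genes were not tested against each other. The strongest promoter regions had a median signal of 154.15 at the Polycomb genes, with a range of 123.6 to 2893.5, and of 184.54 at the Trithorax genes, with a range of 130.75 to 408.28. The median over all bound protein-coding genes was 194.61. The median of the whole thresholded list, which holds 5035 regions ranked by signal and reaches down to 106.21, was 179.16. So apart from a single Polycomb gene, ph-p, the bound genes carried regions of ordinary strength. In whole embryos, fewer cells with a bound site and less binding per cell cannot be told apart.

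**Figure D1:**
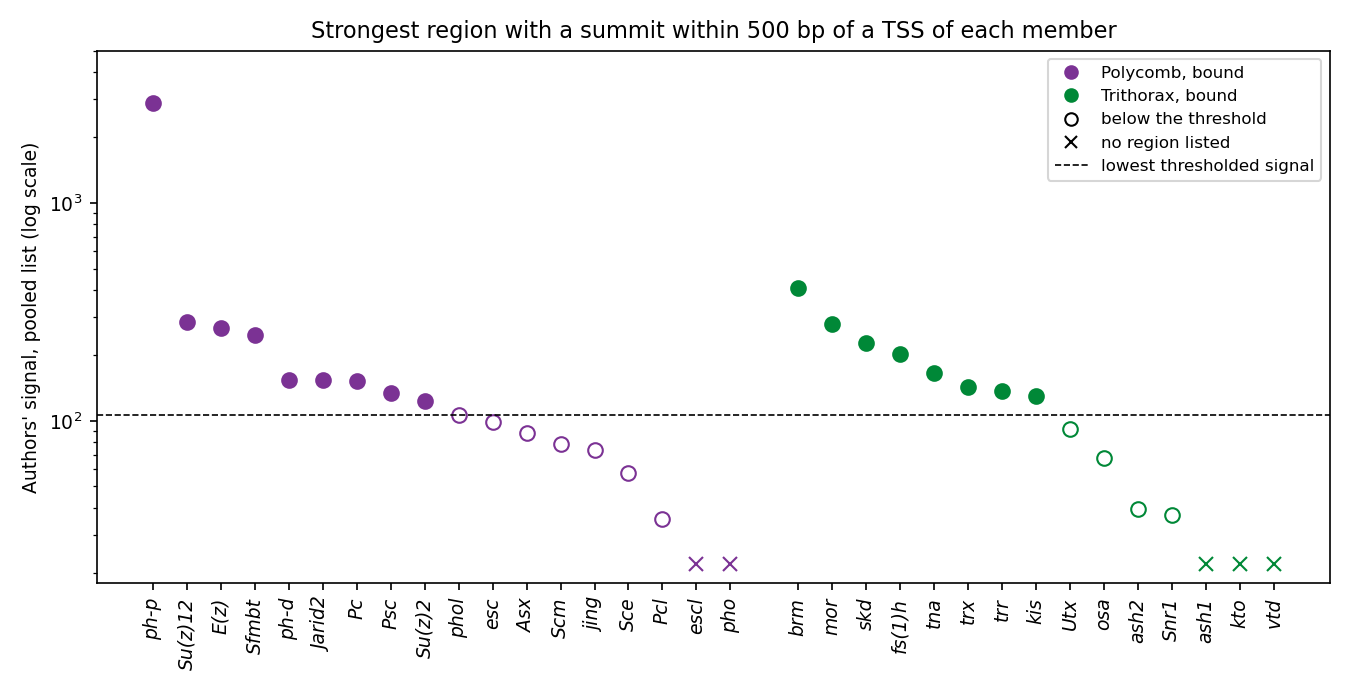
Signal of the strongest pooled region within 500 bp of a TSS (log axis) for each Polycomb gene (purple) and Trithorax gene (green), filled where bound, open where the region fell below the threshold, and a cross where no region was listed. ph-p stands alone at 2893.5, while the other bound genes lie between 123.6 and 408.28 and phol sits just under the dashed line at 106.21.

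The Polycomb repressive complex 1 (PRC1) had the most bound genes, 5 of 6. The polyhomeotic genes, ph-p and ph-d, are tandem copies on the X chromosome that encode the SAM-domain subunit. ph-p (FBgn0004861, X:2126210-2138371) held the region of rank 4 among the 5035, with a signal of 2893.5, and that region ranked 5, 5 and 4 in replicates 1, 2 and 3. Every replicate thus placed it among its strongest few. Its summit lay in an intron, 488 bp upstream of an internal TSS, near the outer limit of the rule. Within 250 bp of a TSS, the strongest ph-p region was 1 of signal 160.61 and rank 2938, 48 bp downstream of a TSS. Another promoter region of ph-p, 416 bp downstream of a TSS, had a signal of 588.97 and ranked 285, 192 and 288 in replicates 1, 2 and 3. The bases around the strongest ph-p summit are shown as the top site of the whole list of genes (dm6, plus strand, X:2137243-2137443), with capitals marking the A/T run of at least 8 bp:
ph-p promoter: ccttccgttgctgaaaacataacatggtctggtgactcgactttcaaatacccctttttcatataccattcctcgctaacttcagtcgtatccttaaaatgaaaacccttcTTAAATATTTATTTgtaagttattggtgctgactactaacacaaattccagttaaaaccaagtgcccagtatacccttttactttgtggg
The only such run spans 14 bp, and 37.3% of these bases are G or C.

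ph-d (FBgn0004860, X:2115727-2123286) had only weak regions, of signal 154.15 at 407 bp upstream of a TSS and 147.9 at 133 bp downstream. The first of them ranked 3156, 4674 and 2688 in replicates 1, 2 and 3, and the other 3937, 2814 and 3853, so both were among the 5035 highest of every replicate, here called its top regions. The ph-p and ph-d sequences align over 3999 bp at 94.374% identity, over 519 bp at 91.329% and over 231 bp at 91.342%. Of the strongest ph-p region 25.9% fell in an aligned block and its summit did not, and of the ph-d region at 133 bp 41.2% did. Reads in such blocks can be shared between the copies, and how the authors placed them is not given in the sources used here. Between the genes, a region of signal 384.62 lay 746 bp beyond the start of ph-d and ranked 909, 674 and 776 in replicates 1, 2 and 3. It counts for neither gene by the rule and would be the strongest at ph-d with a limit of 1000 bp.

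Pc (FBgn0003042), whose chromodomain reads the histone methylation laid down by PRC2, had 1 region of signal 152.83 at 52 bp upstream of its TSS on 3L. It ranked 2522 in replicate 1 and 2532 in replicate 3, and replicate 2 had no summit in it. The RING-finger gene Psc (FBgn0005624) and its paralogue and neighbour Su(z)2 (FBgn0265623), on 2R, showed the same pattern at their promoters. Psc had a signal of 133.99 at 15 bp upstream, with ranks of 2752 and 3287 in replicates 1 and 3, and Su(z)2 had 123.6 at 27 bp upstream, with ranks of 2315 and 4613. None of these 3 promoter regions held a summit of replicate 2. In the 15506 bp between Psc and Su(z)2, the thresholded list gave an interval at 2R:12985049-12985354 with a signal of 489.95, ranks of 670 and 363 in replicates 1 and 3, and no summit of replicate 2. The list names a further summit of signal 124.59 for the same interval. The stronger site of Psc was in its intron, described with the other intronic regions. The remaining PRC1 gene, Sce, the ubiquitin ligase subunit, was unbound, with a best pooled region of signal 57.46 at 321 bp downstream of its TSS. Scm, which bridges PRC1 to other Polycomb proteins, was also unbound, at 78.49.

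PRC2, the histone methyltransferase complex, had 2 of 4 core genes bound. E(z) (FBgn0000629), the catalytic subunit, had a signal of 267.18 at 18 bp downstream of a TSS and ranked 4976, 469 and 1339 in replicates 1, 2 and 3. Su(z)12 (FBgn0020887), which the enzyme needs for activity, had 285.7 at 83 bp downstream and ranked 1858, 1364 and 1057. Both summits also lay within 500 bp of another gene, Cnep1r2 for E(z) and Pfdn6 for Su(z)12. The WD-repeat subunits encoded by esc and escl were unbound. esc had a pooled region of signal 98.38, rank 5546, at 34 bp upstream. Of the replicates, replicate 3 alone had a top region within 500 bp of the esc TSS, at rank 4233. escl had no pooled region within 500 bp.

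Among accessory PRC2 genes, Jarid2 (FBgn0036004), a Jumonji-family subunit, was bound at 153.37, 60 bp upstream and next to Uch-L5, with ranks of 2546, 9075 and 3532 in replicates 1, 2 and 3. Pcl, a Tudor- and PHD-finger subunit, had only a region of signal 35.34, rank 24390. jing, the fly relative of the mammalian subunit AEBP2, was unbound at its promoters, where the best pooled signal was 73.73, and carried more intronic regions than any other of the 33. Of the PhoRC genes, Sfmbt (FBgn0032475), the partner of the DNA-binding Pho proteins, was bound at 247.61, 71 bp upstream, with ranks of 1624, 842 and 2127 in replicates 1, 2 and 3, beside CG43925 and CG5439. The DNA-binding proteins themselves were not bound. phol had a pooled region of signal 106.08 and rank 5043, just past the last thresholded rank, and a thresholded region of signal 1040.4 and rank 83 lay 1521 bp upstream of its TSS. pho had no pooled region within 500 bp. Asx, a subunit of the deubiquitinase PR-DUB, had a pooled region of signal 87.91. Of the replicates, replicate 2 alone had a top region within 500 bp of an Asx TSS, at rank 3016.

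Of the Trithorax genes for histone methylation, 2 of 5 were bound, both weakly at the promoter. trx (FBgn0003862, 3R:14263358-14286903), the founding methyltransferase of the group, had a promoter region of signal 143.53, 2 bp downstream of its TSS, with ranks of 2544 and 3447 in replicates 1 and 3 and no summit of replicate 2. Its strongest site was an intronic region of signal 792.61 and rank 163, 3043 bp downstream of the TSS, with ranks of 165, 120 and 199 in replicates 1, 2 and 3. Here all replicates placed the region high. trr (FBgn0023518, X:1881313-1889950), a methyltransferase known for enhancers, had a signal of 137.15 at 199 bp upstream, between trr and mRpL16, and ranked 4331, 2304 and 7598 in replicates 1, 2 and 3. Those 2 sites are shown because they contrast in sequence (dm6, plus strand, 3R:14283760-14283960 for trx and X:1890049-1890249 for trr). For trx, capitals mark A/T runs of at least 8 bp, and for trr the words GCCAT, the core of the Pho site, and TATCGATA, the DNA replication-related element (DRE), on either strand:
trx intronic: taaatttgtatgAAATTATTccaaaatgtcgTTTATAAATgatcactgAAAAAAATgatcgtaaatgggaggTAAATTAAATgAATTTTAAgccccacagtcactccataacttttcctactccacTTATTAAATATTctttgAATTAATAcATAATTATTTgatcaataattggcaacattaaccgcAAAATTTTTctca
trr promoter: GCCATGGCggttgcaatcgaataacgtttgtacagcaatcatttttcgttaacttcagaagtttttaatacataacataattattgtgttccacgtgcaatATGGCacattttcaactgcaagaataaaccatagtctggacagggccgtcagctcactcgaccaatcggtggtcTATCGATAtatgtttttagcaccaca
The trx window holds 9 A/T runs and is 26.4% G and C. In the trr window GCCAT occurs 3 times, of which a pair overlap on opposite strands, and TATCGATA occurs 1 time. Neither GCCAT nor TATCGATA is in the trx window. The trr window has 2 A/T runs, not marked here, and is 39.8% G and C.

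The other genes for histone methylation were unbound. Utx, the histone demethylase that removes the PRC2 mark, had a pooled region of signal 92.11. Replicates 1 and 3 each had a top region within 500 bp of a Utx TSS. ash2, a shared subunit of the methyltransferase complexes, had 39.49. ash1, a methyltransferase of the group, had no pooled region within 500 bp of its TSS. The region of rank 3 in the whole thresholded list, with a signal of 3349.2 and ranks of 3, 1 and 3 in replicates 1, 2 and 3, lay 153 bp past the 3' end of ash1 (3L:19590404-19590827), 96 bp from the TSS of CG14100. By the rule it counts for CG14100 and not for ash1.

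The Brahma chromatin remodelling group had 3 of 5 genes bound, among them the highest Trithorax promoters. brm (FBgn0000212, 3L:15970082-15982869), the ATPase of the complex, had the highest promoter signal on the Trithorax side, 408.28 at rank 641, 105 bp upstream and near Arl1. It ranked 766, 372 and 783 in replicates 1, 2 and 3, so each replicate held it well inside its top regions. mor (FBgn0002783, 3R:15968134-15972913), the scaffold subunit, had 278.11 at 121 bp upstream, between mor and Hel89B, and ranked 1517, 1260 and 1555. tna (FBgn0026160), a SUMO-ligase-like protein that works with brm, had 166.52 at 54 bp downstream and 123.79 at 336 bp downstream of a TSS, with no summit of replicate 2 in either region. osa (3R:17687818-17718350), the ARID subunit, was unbound at its TSS, where the pooled signal was 67.53, and Snr1, a core subunit, had 37.02. osa nevertheless held the strongest intronic region of the 33 genes, of signal 1403.9 and rank 43, with ranks of 43, 49 and 38 in replicates 1, 2 and 3. That summit lay 13931 bp downstream of the osa TSS and inside an exon of the noncoding gene lncRNA:CR46035. The windows of these sites are on the plus strand of dm6, at 3L:15982874-15983074 for brm, 3R:17704319-17704519 for osa and 3R:15972934-15973134 for mor. For brm and osa capitals mark A/T runs of at least 8 bp, and for mor they mark TATCGATA and GCCAT:
brm promoter: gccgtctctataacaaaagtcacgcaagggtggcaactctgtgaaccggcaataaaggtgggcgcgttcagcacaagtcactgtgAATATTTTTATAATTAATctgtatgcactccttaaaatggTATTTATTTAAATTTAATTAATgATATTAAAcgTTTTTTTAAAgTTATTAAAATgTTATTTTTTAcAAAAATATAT
osa intronic: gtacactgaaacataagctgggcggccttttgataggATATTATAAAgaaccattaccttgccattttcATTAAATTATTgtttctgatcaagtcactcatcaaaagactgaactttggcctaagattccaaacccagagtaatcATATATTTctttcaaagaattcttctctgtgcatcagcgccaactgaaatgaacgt
mor promoter: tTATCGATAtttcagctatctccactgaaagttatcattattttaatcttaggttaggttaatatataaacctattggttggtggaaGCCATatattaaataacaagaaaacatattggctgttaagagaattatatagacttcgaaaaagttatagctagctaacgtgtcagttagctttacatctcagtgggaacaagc
The brm window has 7 A/T runs, the longest of 22 bp, and neither GCCAT nor TATCGATA. The osa window has 3 runs, the longest of 11 bp, and a GCCAT that is not marked. The mor window has 4 A/T runs, also not marked, the longest of 13 bp.

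kis (FBgn0266557, 2L:210735-250823), a chromodomain ATPase that assists transcription, was bound at 130.75, 127 bp upstream, with ranks of 2496 and 3413 in replicates 1 and 3 and no summit of replicate 2. An intronic region of kis had a signal of 176.27 and was in the top regions of every replicate, at ranks 1869, 1664 and 4175. It is shown because it holds GCCAT 2 times, overlapping on opposite strands, as the capitals mark (dm6, plus strand, 2L:224720-224920):
kis intronic: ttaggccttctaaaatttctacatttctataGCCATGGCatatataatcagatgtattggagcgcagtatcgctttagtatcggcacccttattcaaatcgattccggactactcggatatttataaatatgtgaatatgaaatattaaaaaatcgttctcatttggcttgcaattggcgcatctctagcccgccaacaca
skd (FBgn0003415), of the Mediator kinase module, had 227.43 at 442 bp upstream, only 39 bp from Pdss2, and ranked 2055, 861 and 3061 in replicates 1, 2 and 3. Its partner kto had no pooled region within 500 bp. fs(1)h (FBgn0004656), the fly BET bromodomain protein, was bound at 202.55, 185 bp upstream of its own TSS and 24 bp from that of mys, with ranks of 3041 and 1970 in replicates 1 and 3 and no summit of replicate 2. vtd, the kleisin subunit of cohesin, lies at 3L:27136525-27157999, beyond the last region of the pooled list on that arm, which ended at 26014397. The replicate lists reach further along 3L, and that of replicate 2 alone had a region within 500 bp of the vtd TSS, at rank 16315 and thus outside its top regions.

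Of the 16 unbound genes, 11 had a region of the pooled list within 500 bp and 5 had none. With the 17 bound genes, 28 of the 33 had such a region, or 84.8%, against 52.3% of all protein-coding genes. The authors label the pooled list as peaks and background. A pooled region below the threshold is therefore not evidence of binding. The members nearest the signal threshold were Su(z)2 at 123.6 and kis at 130.75 on the bound side, and phol at 106.08 and esc at 98.38 on the unbound side. In distance, the strongest summits nearest the limit of 500 bp were those of ph-p at 488 bp and skd at 442 bp. On the far side, the nearest thresholded summits of unbound genes lay 1521 bp from phol and 1538 bp from jing.

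Taken alone, replicates 1, 2 and 3 bound 19, 10 and 19 of the 33 genes with their top regions, against 21.1%, 15.9% and 20.9% of all protein-coding genes. As shares of the 33 these are 57.6%, 30.3% and 57.6%, and the mean was 16 ± 5.2 genes (SD, n = 3). The Polycomb genes contributed 10, 6 and 11 and the Trithorax genes 9, 4 and 8, so replicate 2 gave the fewest on both sides. Of the 17 bound genes, 17, 9 and 16 were also bound in replicates 1, 2 and 3, and 8 were bound in all of them. Those 8 were ph-p, ph-d, E(z), Su(z)12 and Sfmbt on the Polycomb side and brm, mor and skd on the Trithorax side. Scm, esc, Asx, jing and Utx were unbound in the thresholded list and bound in the top regions of at least 1 replicate.

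**Figure D2:**
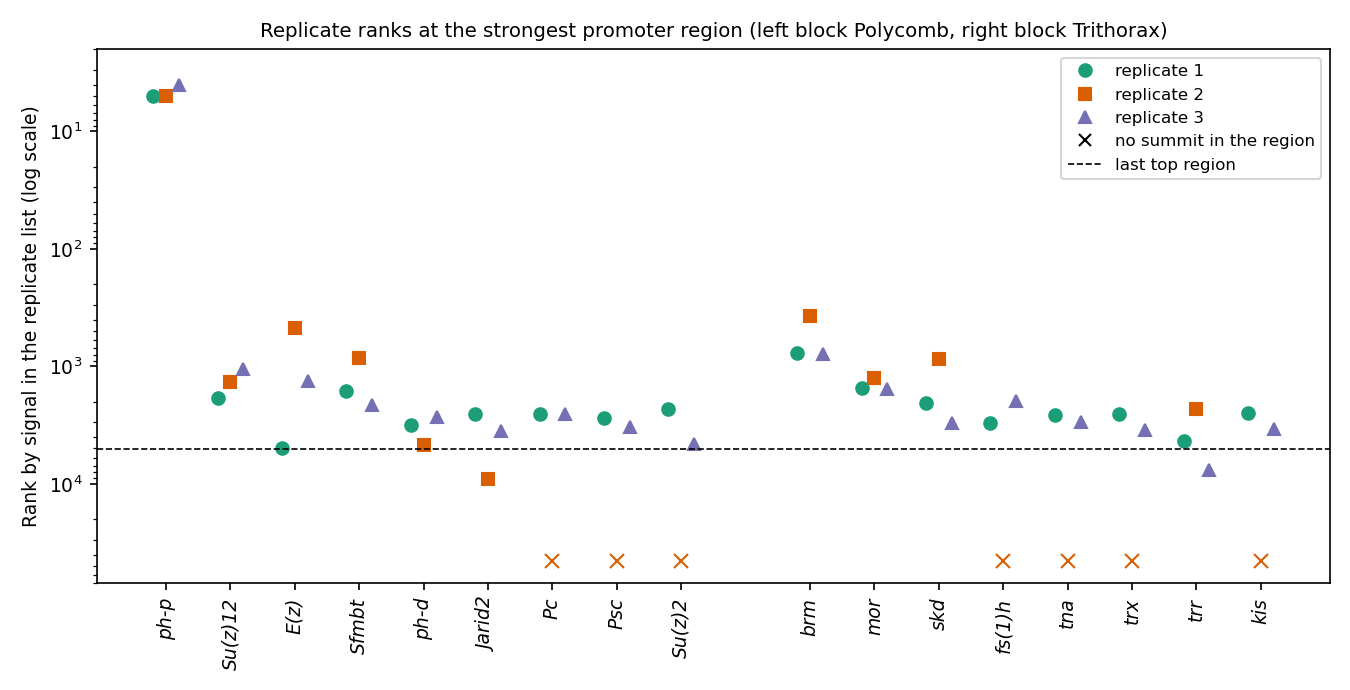
Rank in each replicate list (log axis, strongest at the top) of the summit inside the strongest promoter region of each bound gene, with crosses where a replicate had no summit there and a dashed line at the last top region. The ph-p points lie together at ranks 5, 5 and 4, and every cross belongs to replicate 2.

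The 17 bound genes held 23 promoter summits, 14 at Polycomb and 9 at Trithorax genes. At Sfmbt and at Su(z)12 a pair of overlapping regions shared replicate summits, so these counts include overlapping calls. Replicates 1 and 3 each had a summit in all 23 regions, while replicate 2 had none in 8 of them, 3 Polycomb and 5 Trithorax. Of the 14 regions with a signal under 200, 7 lacked a summit of replicate 2, and of the 9 stronger ones 1 did. The same held across all genes, where 35% of the 1345 promoter regions under 200 lacked replicate 2, and 8.91% of the 1089 stronger ones did. Replicates 1 and 3 were missing from 1.34% and 1.12% of those weaker regions. The list was thresholded on reproducibility, which favours regions that replicates share. Support from replicates 1 and 3 where replicate 2 is absent thus follows in part from how the list was made. The absences at Pc, Psc, Su(z)2, trx, tna and kis were among the weaker regions, where replicate 2 fell short in general, and the part of that shortfall in them was not tested. The fs(1)h region, at 202.55, was the 1 stronger region without replicate 2.

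At 9 of the 17 bound genes, 4 Polycomb and 5 Trithorax, the strongest summit also lay within 500 bp of a TSS of another gene. This is 52.9%, near the 60.5% of all bound protein-coding genes, so shared promoters do not set the group apart. Within it, the median signal was 247.61 where another gene was near and 148.18 at the 8 genes with none, which was not tested. None of the 5 bound PRC1 genes had another gene at the summit. For the other 9, a summit cannot be assigned to 1 gene of the pair. The strongest summit lay upstream of its nearest TSS at 13 of the 17 genes, or 76.5%, against 87.7% of all bound genes. Its median position was 52 bp upstream at the Polycomb genes and 124 bp upstream at the Trithorax genes, beside 123 bp upstream over all bound genes. The median bound gene of the 33 had 2 annotated TSSs and the median unbound gene 1. More TSSs give a gene more places to be called bound.

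Intronic regions were defined as thresholded summits inside a gene, outside its exons and over 500 bp from any annotated TSS. There were 28 in 10 of the 33 genes, or 30.3%, against 6.55% of all protein-coding genes. The Polycomb genes held 12 in 4 genes and the Trithorax genes 16 in 6. These genes have long introns, with a median of 1246 bp per Polycomb gene and 7191 bp per Trithorax gene against 253 bp over all genes. Per 100 kb of intron there were 7.77 regions at the Polycomb genes and 10.9 at the Trithorax genes, together 9.32, against 2.82 over all genes. Without jing and tna, which hold 15 of the 28, the density was 8.33. Without jing alone, the Polycomb density was 9.1, still below the 10.9 of the Trithorax genes. The size of the difference between the sides thus moved with a single gene, and it was not tested. Among genes with at least 5000 bp of intron, a limit chosen after seeing the data, 9 of 13 of the listed genes had an intronic region, against 34.8% of all such genes. The median signal was 168.93 in the Polycomb introns and 156.49 in the Trithorax introns, beside 174.99 over 1676 intronic regions of all protein-coding genes. So the introns of these genes held more regions per length, at a median strength no higher than that of all introns, with the strong sites of osa, trx and Psc, at ranks 43, 163 and 359, as exceptions.

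**Figure D3:**
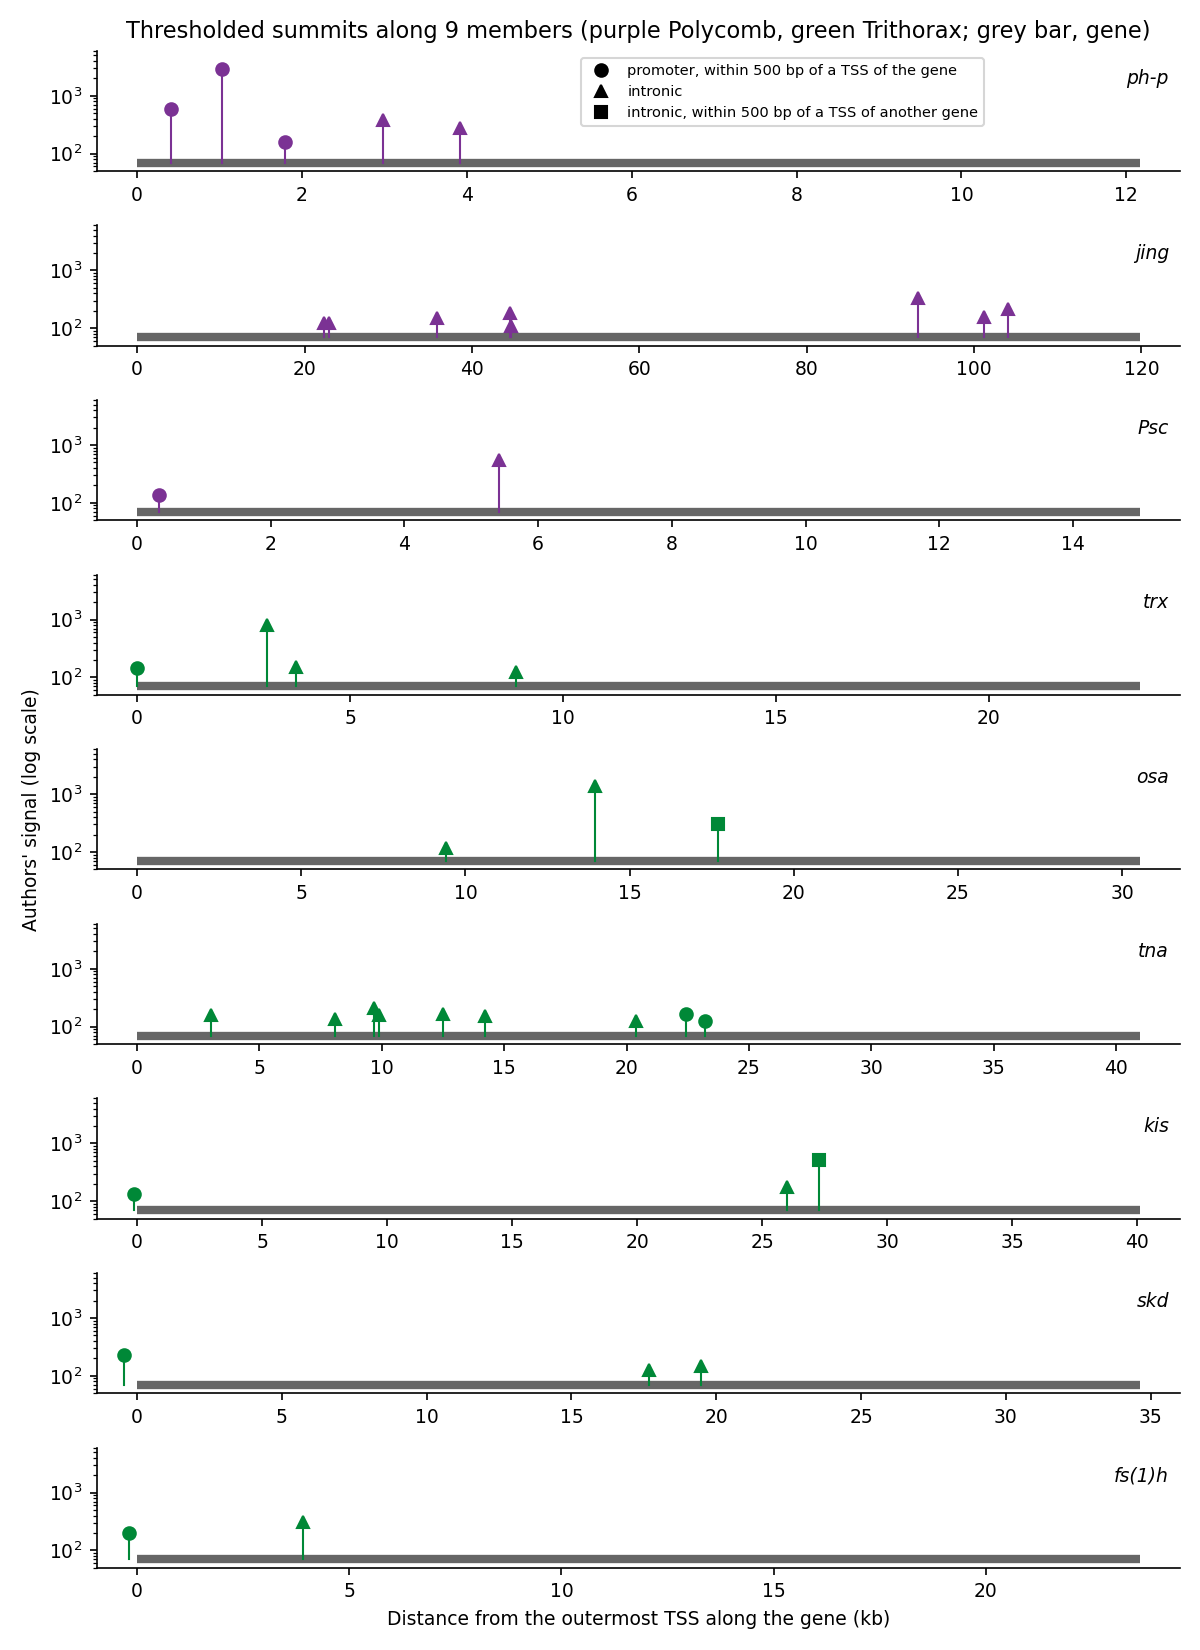
Position of each thresholded summit along 9 genes, in kb from the outermost TSS, with height giving the signal (log axis), purple for Polycomb and green for Trithorax genes, and shapes for promoter summits, intronic summits and intronic summits near a TSS of another gene. The highest points of osa, trx and Psc are intronic, at 1403.9, 792.61 and 548.04, whereas that of ph-p, 2893.5, is counted as promoter.

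Of the 10 genes with intronic regions, 8 were also bound at the promoter, and in 5 of those 8 an intronic region was the stronger. The matching shares over all genes with an intronic region are not given here, so neither count marks a trait of these genes. Among genes with at least 5000 bp of intron, 9 of 13 of the listed genes were bound, against 28.3% of all such genes. Besides trx, Psc was an example of a stronger intronic region, with a signal of 548.04 at 5077 bp downstream of its TSS. It ranked 387, 407 and 320 in replicates 1, 2 and 3. Every replicate held it, unlike the Psc promoter, where replicate 2 had no summit. In fs(1)h, an intronic region of signal 309.06 lay 828 bp downstream of a TSS, at ranks 1090, 872 and 1508, and again the promoter region had no summit of replicate 2. ph-p had intronic regions of signal 385.82 and 274.24, both weaker than its promoter, with ranks of 802, 802 and 721 for the stronger. Su(z)2 had 1 of signal 116.2, which ranked 2058, 7218 and 28831 and so rested mainly on replicate 1.

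jing, with 110465 bp of intron, held 8 intronic regions with signals of 108.48 to 330.31, a density of 7.24 per 100 kb. Its strongest ranked 1239, 771 and 906 in replicates 1, 2 and 3. tna held 7, of signal 126.67 to 208.08, or 20.6 per 100 kb, trx held 3, or 31.6, and ph-p held 2, or 37.9. In jing and in tna a pair of neighbouring regions shared replicate summits, so these counts include overlapping calls. skd had intronic regions of 148.73 and 125.71, neither with a summit of replicate 2. Across all 28, 13 had a summit among the top regions of every replicate, 5 Polycomb and 8 Trithorax, and 7 had no summit of replicate 2. Over the whole thresholded list, 2815 of the 5035 regions had a summit among the top regions of every replicate. A further region in osa, of signal 304.39, and 1 in kis, of 510.74, lay within 500 bp of the TSS of a noncoding gene, lncRNA:CR46036 and lncRNA:CR44222, and were not counted. With the limit applied to each gene's own TSSs alone, they bring the total to 30.

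By the median, the windows of 201 bp around the summits held more A and T than G and C. They held slightly more G and C than all windows of their kind in the list, and no sequence outside the list was compared. The median GC content was 39.8% in the 23 promoter windows and 36.6% in the 28 intronic windows, beside 36.3% and 34.8% in all promoter and all intronic windows of the list. An A/T run of at least 8 bp was present in 87% of the promoter windows and 89.3% of the intronic windows of these genes, close to the 89.9% and 91.9% of all such windows. The longest run at brm, 22 bp, compares with a median of 12 bp over all promoter windows, and that of the strongest trx window, 12 bp, with a median of 11 bp over all intronic windows.

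Words of Polycomb-recruiting proteins were counted on both strands, and none of the words searched contains another. GCCAT was found in 8 of the 23 promoter windows, or 34.8%, against 27.6% of all promoter windows, and in 10 of the 28 intronic windows, or 35.7%, against 24.9%. GAGAG, the word of GAGA factor, was in 3 promoter windows, or 13%, against 21.2%, and in 7 intronic windows, or 25%, against 22.8%. By side, GAGAG was in 3 of 14 Polycomb promoter windows, or 21.4%, and in none of 9 Trithorax windows, while GCCAT was in 3 of 14 Polycomb windows, or 21.4%, and in 5 of 9 Trithorax windows, or 55.6%. These splits were not tested. The Zeste word TGAGTG, searched also with C as the first base, the fifth base or both, was in 5 promoter windows, or 21.7%, against 24.6%, and in 8 intronic windows, or 28.6%, against 22.3%. GTGTGT, the repeat linked to Combgap, was in 4 promoter windows, or 17.4%, against 11.3%, and in 5 intronic windows, or 17.9%, against 13.8%. Among the strongest sites the words were mixed. The strongest ph-p, trx and brm windows held none of them, while the osa window of signal 1403.9 held GCCAT and a Zeste word, the intronic Psc window of 548.04 held GCCAT and GAGAG, and the ph-p window of 588.97 held a Zeste word.

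Words of fly core promoters were rarer. TATCGATA was in 3 promoter windows, at Sfmbt, trr and mor, or 13% against 7.27%, and in none of the intronic windows, against 0.179%. All 3 of those promoters are shared with another gene. GGTCACAC, core promoter motif 1, was in 2 promoter windows, at trx and fs(1)h, or 8.7% against 5.18%, and in 1 intronic window, at tna, or 3.57% against 0.418%. The E-box word CAGCTG was in 1 promoter window, or 4.35% against 11.5%, and in 5 intronic windows, or 17.9% against 5.85%, including 2 of the 8 windows of jing. With so few windows, each share moves by several points with a single window, and a match is not evidence that a factor binds there.

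Related genes outside the 33 were counted by the same rule, under which 20.6% of all protein-coding genes were bound. Of 14 further Polycomb-related genes 8 were bound, with a median signal of 186.96, and of 20 further Trithorax-related genes 6 were bound, with a median of 156.3. The highest of the first list were Trl, which encodes GAGA factor, at 355.7, psq, a related BTB protein, at 307.33, and mxc, the histone locus scaffold, at 236.51. Those of the other list were the Brahma complex subunit Bap60 at 228.33, the methyltransferase subunit Rbbp5 at 215.63 and its partner Dpy-30L1 at 165.5. All 6, which were named for their high signal, were in the top regions of every replicate. Of all 14 bound related genes, 8 were bound with regions held by all 3 replicates. Most of the other Brahma complex and methyltransferase subunits listed were unbound.

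The counts shrank as the regions were required to be stronger or to repeat. With the regions found among the top regions of all replicates, 5 Polycomb and 3 Trithorax genes remained bound, beside 11.3% of all protein-coding genes. With only the 2517 thresholded regions of highest signal, 4 and 4 did, beside 11.4%. ph-p, Su(z)12, Sfmbt, mor and skd were bound under both of these and under the stricter reciprocal overlap.

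**Figure D4:**
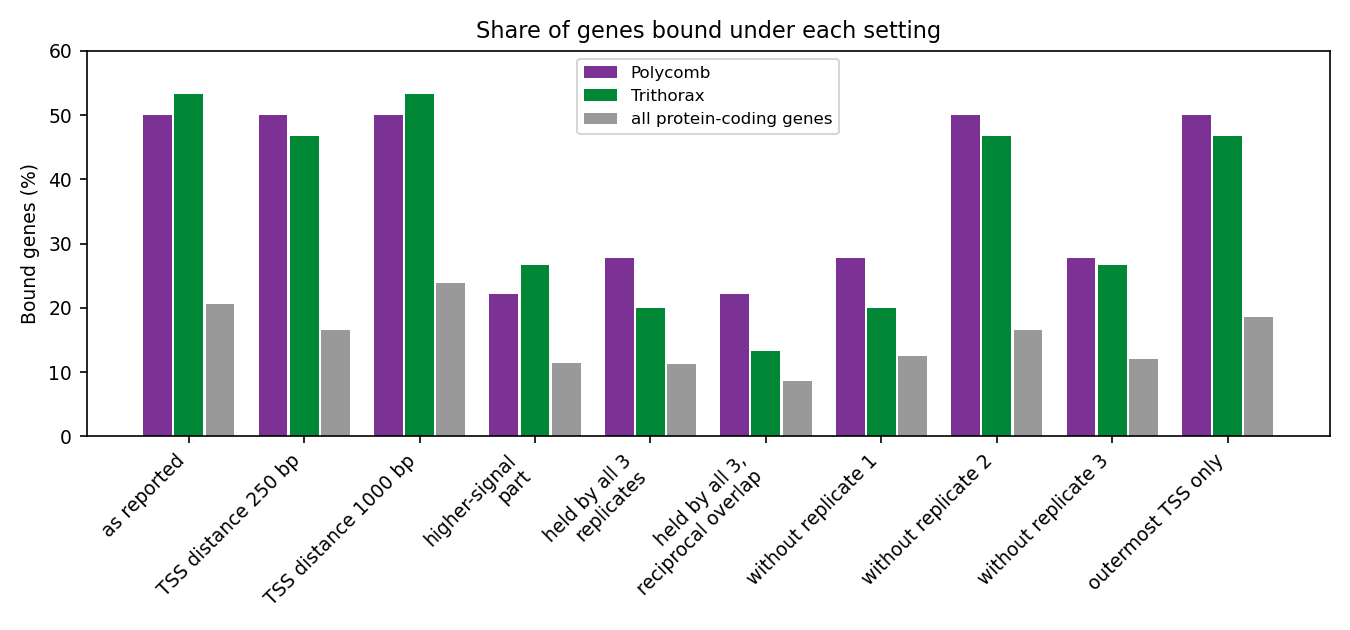
Share of genes bound (%, from 0) under the reported rule and 9 alternatives, as bars for Polycomb genes (n = 18), Trithorax genes (n = 15) and all protein-coding genes (n = 13968). Bars of the Polycomb and Trithorax genes stand above the grey bar in each setting, at 50% and 53.3% against 20.6% under the reported rule.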

How the data were processed

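Each replicate was a ChIP-seq library of chif-eGFP embryos. The authors deposited narrowPeak lists on dm6, per the file headers and notes: 1 list of 30000 regions per replicate, 1 of the same length from the 3 replicates pooled, and a list of 5035 thresholded with the irreproducible discovery rate, all called against 1 control file. The deposited signal of a region is the authors' own score, with no stated normalization. The pooled list is labelled as peaks and background, the input to the irreproducible discovery rate step. The deposited summit offset was turned into a position. The aligner and peak caller, not given in the sources used here, could change which regions were listed.

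Summits were placed against Ensembl release 115 (BDGP 6.54, the Release 6 assembly of dm6) with Python 3.11.15, and sequence was read from the RefSeq copy of that assembly. A replicate was said to hold a region where a summit of its own 5035 top regions lay inside it. The ph copies were aligned with blastn 2.17.0, with 1000 bp to either side. Distance counting was tested on simulated data, and motif counting was not. The genes, the lists of related genes, the rule for naming (all 33 genes, and the 3 related genes of highest signal per list) and the motifs were chosen with earlier results of these data known, and no p-value is given. Of the related symbols, 3 were not found and dropped.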

Additional observations from a re-analysis of the deposited data

How the results depend on the processing

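Distance limits of 250 and 1000 bp, the outermost TSS alone and each gene's own TSSs for introns left the counts within 1.5 times the reported ones. The 9 bound Polycomb genes became 4 with the 2517 regions of highest signal, 5 with regions held by all 3 replicates and 4 with a reciprocal overlap of 50%. The 8 bound Trithorax genes became 4, 3 and 2 under the same settings in that order, and the 14 bound related genes 6, 8 and 6. The 28 intronic regions became 10, 13 and 11, of which Polycomb introns held 6, 5 and 4 in place of 12, and Trithorax introns 4, 8 and 7 in place of 16. Fewer regions enter each of these settings. Of all protein-coding genes, 11.4%, 11.3% and 8.63% were bound under them in that order, against 20.6% by the reported rule. Each replicate was also left out in turn, by keeping the thresholded regions that both other replicates held. The list and its signals still came from all 3 replicates. This gave 5 to 9 bound Polycomb genes, 3 to 7 bound Trithorax genes and 8 to 11 related genes. The intronic regions were 13 to 19, of which 5 to 9 were Polycomb and 8 to 10 Trithorax. The share of all protein-coding genes bound was 12.5%, 16.6% and 12% without replicates 1, 2 and 3. Without replicate 2, all bound genes but trr remained. Without replicate 1, 8 of the 17 remained, namely those held by all 3 replicates, and without replicate 3, 9 did, trr being the addition. This follows from the requirement that both other replicates hold a region, which brings in replicate 2. Within 250 bp, skd was lost and ph-p fell to a signal of 160.61. Within 1000 bp, ph-d had 384.62 and fs(1)h 309.06. With the outermost TSS alone, tna was lost and ph-p had 588.97. Motif windows of 50 bp to either side, an alternative chosen after seeing the data, moved the count of windows with a match by over 1.5 times for 5 of the 7 motifs. The narrower windows lie inside the wider ones, so these counts could only fall. No paired analysis was possible because there is 1 group and no result comes from a test. Depth is unknown, so a missing region cannot be told from a shallow library.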
